A study of Rattus norvegicus with 22 samples.

Results

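The genes described here are 10 named players of the epithelial-mesenchymal transition (EMT), measured in tongue cancers of the rat: the transcription factors Snai1, Snai2, Zeb1, Zeb2, Twist1 and Twist2, the filament protein vimentin (Vim), and the surface proteins E-cadherin (Cdh1), N-cadherin (Cdh2) and Epcam. They were found by the gene name that the array files carry. Each had 1 probe, and the 10 are among 19167 gene symbols on the array. The question was whether RNA of these genes differed between oral squamous cell carcinoma (OSCC) and adjacent phenotypically normal tongue, in pieces that also differ in stroma, leukocytes and muscle.

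Tissue came from 11 male F344 rats of about 33 weeks of age that drank 4-nitroquinoline 1-oxide (4-NQO), a chemical carcinogen, at 20 ppm for 10 weeks. Every rat gave 1 OSCC piece and 1 adjacent normal piece, so 22 single-color Agilent arrays form 11 pairs, named below by animal number. All 22 array titles read untreated, and the normal pieces are labelled as given no 4-NQO (0 ppm), but by the protocol and the paper both pieces came from the same exposed rats. The pieces are bulk tissue: fewer cells of a type and less RNA per cell cannot be told apart.

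In EMT, epithelial cells lose junctions and polarity and take on a motile, fibroblast-like form. SNAI, ZEB and TWIST proteins bind short DNA letters called E-boxes and repress genes of the epithelial state, among them Cdh1, while vimentin and N-cadherin are gained. In carcinomas the program is often incomplete, so that cells keep epithelial proteins while they add matrix and protease genes. Fibroblasts, pericytes, endothelium and many leukocytes also express Vim and the transcription factors, and a piece of tissue holds all of these cells.

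Levels are log2 signals relative to the 75th percentile of each array, which was 236.8 to 654.9 signal units on normal arrays and 338.7 to 1414 on OSCC arrays. Probes well above background made up 48.4% to 56.1% of all probes on normal arrays and 52.3% to 65.5% on OSCC arrays. The OSCC arrays of animals 4 and 9 shared a scan day with all normal arrays, and the remaining 9 OSCC arrays had a different scan day. A fit with scan day as a term thus takes the tissue difference from the pairs of animals 4 and 9 alone. Normal arrays lay on 3 slides and OSCC arrays on 4 others, so slide and tissue cannot be told apart beyond a random block. Squamous epithelium was present in both tissues, with all 11 measured markers detected and mean list levels of 4.18 to 4.82 in normal tissue and 2.04 to 5.14 in OSCC, the lowest in animal 24.

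Among these genes Snai1, a repressor of Cdh1, rose 2.50-fold in OSCC, Zeb1 was lower in 9 of 11 pairs, and Cdh1 itself differed by -0.01 on the log2 scale. A gene was called when limma, fitted over all 30367 probes with rat and tissue as terms, gave a Benjamini-Hochberg adjusted p below 0.05 and a mean change of at least 2-fold. By that rule 2 of the 10 genes were higher in OSCC (Snai1 and Cdh2) and 0 were lower, against 6.86% of all probes called higher and 6.97% called lower. At an unadjusted limma p below 0.05, with no fold minimum, 4 genes differed, Zeb1 being the only lower one. Without a fold minimum such differences were common. Even at an adjusted limma p below 0.05, 4912 of all 30367 probes were then higher and 8464 lower. The methods' t-test, taken within pairs, also called 2 of the 10 genes higher and 0 lower. The median log2 difference of the 10 genes was 0.37, while that of all probes was -0.24. After quantile normalization the median of all probes was -0.03. Of the 10 genes, 9 were well above background on all 22 arrays, against 13603 of all 30367 probes, so the medians compare unlike sets. Cdh2 was the exception.

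**Figure D1:**
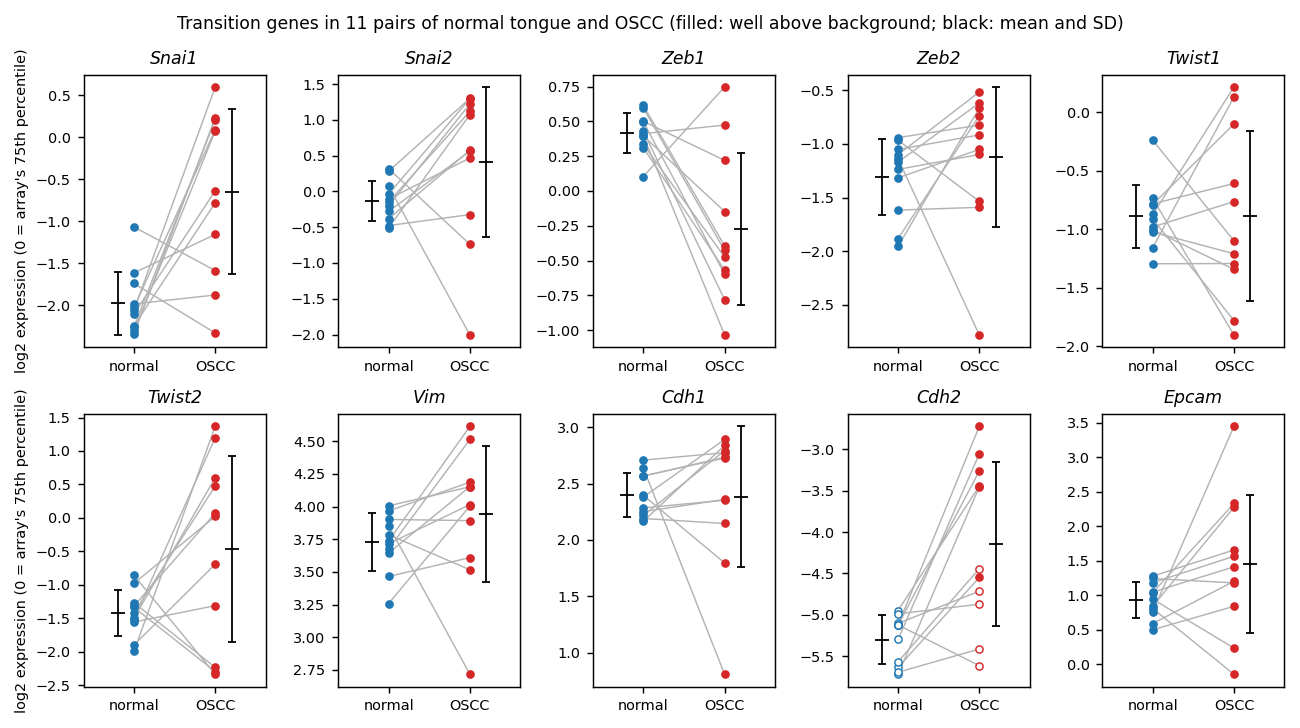
Log2 expression of the 10 genes in normal tongue (blue) and OSCC (red), 11 pairs joined by lines, each panel on its own vertical scale. Black marks are the mean with the SD and open points are arrays on which the probe was not well above background. Snai1 rose in 9 of 11 pairs, Zeb1 was lower in 9 of 11, and Cdh2 was open on all 11 normal arrays.

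The upstream DNA of 3 members is shown because it holds CACCTG (read CAGGTG on the other strand), the E-box letters that SNAI and ZEB proteins are known to bind. RefSeq promoters of assembly GRCr8 were on hand for 7 of the 10 genes, and 3 of the 7 hold the letters within the 250 bases before the start, as do 15.9% of 33469 promoters. Capitals mark the match, which lies 142 bases before the start in Snai1 (chr3:176667226-176667475, plus strand), 95 in Zeb1 (chr17:56810654-56810903, minus strand) and 165 in Epcam (chr6:12649679-12649928, minus strand).
Snai1: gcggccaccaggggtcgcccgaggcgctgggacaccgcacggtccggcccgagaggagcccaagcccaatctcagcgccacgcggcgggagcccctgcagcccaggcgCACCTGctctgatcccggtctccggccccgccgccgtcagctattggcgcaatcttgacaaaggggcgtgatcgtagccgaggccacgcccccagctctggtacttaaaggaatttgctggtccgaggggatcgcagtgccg
Zeb1: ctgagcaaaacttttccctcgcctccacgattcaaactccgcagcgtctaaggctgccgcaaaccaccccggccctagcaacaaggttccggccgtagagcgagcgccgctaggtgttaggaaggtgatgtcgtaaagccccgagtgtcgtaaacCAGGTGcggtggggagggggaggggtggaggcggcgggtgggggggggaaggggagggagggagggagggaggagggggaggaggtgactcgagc
Epcam: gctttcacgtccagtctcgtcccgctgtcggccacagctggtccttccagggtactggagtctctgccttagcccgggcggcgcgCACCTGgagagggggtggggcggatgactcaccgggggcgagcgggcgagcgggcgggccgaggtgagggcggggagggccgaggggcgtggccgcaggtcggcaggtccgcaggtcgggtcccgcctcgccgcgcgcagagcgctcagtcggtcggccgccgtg
Vim, Zeb2, Twist1 and Twist2 held no match in this window. A match describes letters, and binding was not measured.

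Snai1, measured by a probe at chr3:158681388-158681447 (assembly rn4), had a log2 level of -2.34 to -1.07 in normal tissue (median -2.05) and of -2.33 to 0.60 in OSCC (median -0.64). In 7 of 11 OSCC pieces it lay above the highest normal piece, and the groups overlapped through the other 4. The mean difference was 1.32 ± 0.34 (SE, n = 11 pairs), or 2.50-fold, with a limma adjusted p of 0.011. It was higher in 9 of 11 pairs. The rise was 1.46 to 2.65 in animals 4, 9, 11, 13, 16, 25 and 26. In animals 22 and 24 the difference was only 0.11 and 0.46, and in animals 17 and 21 it was -0.59 and -0.52. With scan day as a term the difference was 1.92, which is the mean of animals 4 and 9, scanned on 1 day. The call was then lost (limma adjusted p = 0.12), in a fit that called only 3 of all 30367 probes. The call was also lost in the 9 pairs split over scan days (1.19, adjusted p = 0.055).

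Snai2 (Slug), the close relative of Snai1 that is also expressed in basal keratinocytes, was not called. Its level was -0.51 to 0.32 in normal tissue (median -0.15) and -2.01 to 1.30 in OSCC (median 0.57). The difference was 0.55 ± 0.32 (SE, adjusted p = 0.17, limma). It was positive in 9 pairs, from 0.15 in animal 17 to 1.58 in animal 26, but -1.06 in animal 22 and -2.08 in animal 24. Those were also the pairs in which Cdh1 was clearly lower. Without the pairs of animals 21, 22 and 24, which the study singles out as variable, Snai2 was called higher.

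Zeb1, a zinc-finger and homeobox repressor of epithelial genes, went the other way. The probe lies at chr17:60177705-60177764 (rn4). Its level was 0.10 to 0.61 in normal tissue (median 0.41) and -1.04 to 0.75 in OSCC (median -0.43), with 8 of 11 OSCC pieces below the lowest normal one. The difference was -0.69 ± 0.18 (SE, n = 11 pairs) and its limma adjusted p was 0.012, but the change was under the 2-fold minimum and so was not called. It was lower in 9 of 11 pairs, the exceptions being animal 22 (0.06) and animal 24 (0.65). The 2 pairs of 1 scan day averaged -0.68 and the 9 split pairs -0.69. Without animals 21, 22 and 24 it passed the fold minimum.

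Its paralog Zeb2 did not pass the test. The level was -1.95 to -0.94 in normal tissue (median -1.17) and -2.78 to -0.52 in OSCC (median -0.92). A difference of 0.18 ± 0.23 (SE) had an adjusted p of 0.51 in limma, with a 95% interval of -0.31 to 0.68. Animal 17 stood lowest (-1.64), and animals 24 and 13 highest (1.29 and 1.14). The mean was 0.37 without animal 17, 0.09 without animal 13 and 0.07 without animal 24. The sign turned to -0.02 with arrays scaled to the median and to -0.21 with scan day as a term.

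TWIST proteins are basic helix-loop-helix factors of mesoderm and of dermal and stromal fibroblasts. Twist1 had a level of -1.30 to -0.24 in normal tissue (median -0.91) and of -1.91 to 0.22 in OSCC (median -1.10). It was higher in 6 pairs and lower in 5, and its mean difference of 0.00 had a 95% interval of -0.49 to 0.50 (adjusted p = 0.99, limma). The sign turned to -0.20 with arrays scaled to the median. Twist2 spread more widely. Its level was -2.00 to -0.86 in normal tissue (median -1.42) and -2.34 to 1.37 in OSCC (median 0.02). Twist2 was 1.00 to 3.36 higher in the same 7 animals (4, 9, 11, 13, 16, 25 and 26), 0.24 higher in animal 22, and lower in animals 17, 21 and 24 (-0.97, -1.48 and -0.96). The mean of 0.95 ± 0.43 (SE) did not pass (adjusted p = 0.086, limma), and leaving out the pair of animal 17, 21 or 24 alone led to a call.

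Vim, the intermediate filament protein of mesenchymal cells, differed little. It was measured by 10 spots of 1 probe. Its level was 3.26 to 4.00 in normal tissue (median 3.74) and 2.72 to 4.61 in OSCC (median 4.01). The difference was 0.21 ± 0.17 (SE, adjusted p = 0.31, limma; 95% interval -0.16 to 0.59), with 8 pairs higher. Animal 17 had the lowest value (-1.14), and animals 25 and 11 the highest (0.88 and 0.84). The mean was 0.35 without animal 17 (adjusted p = 0.051), and 0.01 with arrays scaled to the median against 0.39 after quantile normalization.

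The cadherin of epithelial junctions, Cdh1, was not lower on average. The probe lies at chr19:36511853-36511912 (rn4). Its level was 2.17 to 2.71 in normal tissue (median 2.38) and 0.81 to 2.89 in OSCC (median 2.73). The mean difference was -0.01 ± 0.20 (SE, adjusted p = 0.96, limma), with a 95% interval of -0.45 to 0.42, and 8 of 11 pairs were higher. A fall was seen in animal 24 (-1.83) and animal 22 (-0.60), while animal 25 was at -0.04 and the other 8 lay between 0.07 and 0.67. The sign of the mean turned with the scaling, to 0.09 after quantile normalization, and to 0.17 without animal 24. In animal 24 the squamous epithelium list was also the lowest of all pairs (-2.41).

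N-cadherin, the cadherin of neural and mesenchymal cells, was faint. Cdh2 was not well above background in any of the 11 normal pieces, and was so in 6 OSCC pieces, those of animals 4, 9, 11, 13, 25 and 26. Its measured level was -5.72 to -4.95 in normal tissue and -5.62 to -2.72 in OSCC (median -4.44), where 9 pieces lay above the highest normal one. The fit called it higher (limma adjusted p = 0.0066, 10 of 11 pairs). No fold is given, because the signal in OSCC averaged below the lowest signal that counts as detected in normal tissue. The call was lost with normexp background correction (adjusted p = 0.88) and with scan day as a term (adjusted p = 0.097). With arrays scaled to the median the adjusted p was 0.012 but the change was under 2-fold, and a filter on dim probes removed the gene.

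Epcam, an adhesion glycoprotein of simple and glandular epithelia, was not called. Its level was 0.50 to 1.28 in normal tissue (median 0.94) and -0.15 to 3.45 in OSCC (median 1.41). The difference was 0.53 ± 0.28 (SE, adjusted p = 0.14, limma), with 8 pairs higher. Animal 17 (2.69), animal 9 (1.44) and animal 16 (1.29) stood above the rest, and without animal 17 the mean was 0.31. In these 3 pairs the gland epithelium list, of which 9 of 10 genes were called higher in OSCC, had its 3 highest mean differences (6.41, 5.58 and 5.36). Animal 24 had a gland list difference of 4.48 and an Epcam difference of 0.36, and animals 21 and 22 had the lowest Epcam differences (-0.95 and -0.71). The part of gland tissue in the Epcam values was not tested.

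All 10 genes varied more among OSCC pieces than among normal pieces, with the SD 1.84 to 4.12 times as large. The same was true of 83.1% of all probes, at a median ratio of 1.64. Over the 11 pairs the differences of Twist1 and Twist2 ran together (r = 0.94, rho = 0.90, and r = 0.90 without the 2 pairs farthest on Twist1). Twist2 and Cdh2 did so at r = 0.82. Snai2 and Cdh1 had r = 0.90 over all 11 pairs but only 0.31 over the 9 without animals 22 and 24, and Zeb1 and Cdh1 had r = -0.81 over 11 pairs, -0.55 without animal 24 and 0.09 without a further 2. These correlations are a description over pairs that share scaling and tissue makeup.

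**Figure D2:**
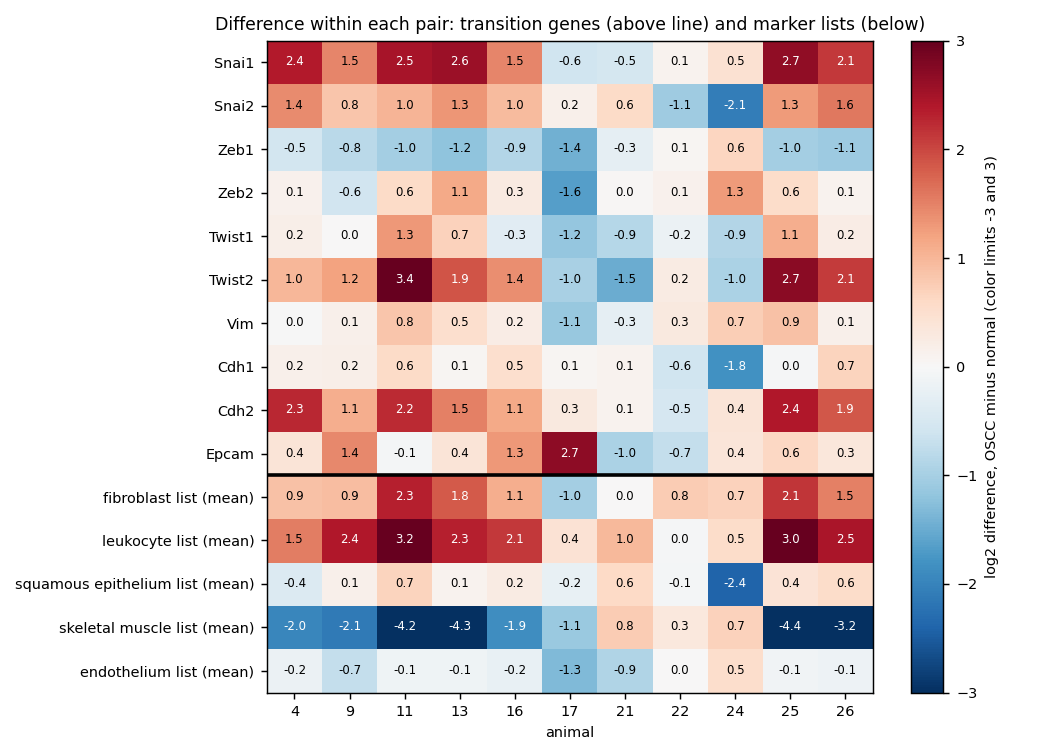
Log2 difference (OSCC minus normal) within each of 11 pairs, in columns by animal, for the 10 genes and, under the line, for the mean of 5 marker lists. Red is higher and blue is lower in OSCC. Snai1, Twist2 and Cdh2 are red in animals 4, 9, 11, 13, 16, 25 and 26, where the skeletal muscle list is blue. That list is also blue in animal 17, where Snai1 and Twist2 are blue. Cdh2 was not well above background in normal tissue.

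Markers of some other cell types also differed between the tissues. Of 12 fibroblast genes 7 were higher in OSCC, and the mean list level was 1.10 to 1.87 in normal tissue and 0.85 to 3.67 in OSCC. Lum and Col1a1, matrix products of fibroblasts, had the largest called rises of that list (3.18-fold and 3.03-fold). Of 12 leukocyte genes 10 were higher, with list levels of -1.59 to -0.40 in normal tissue and -0.56 to 1.94 in OSCC. Of 10 skeletal muscle genes 9 were lower, with list levels of 6.40 to 7.49 in normal tissue and 2.18 to 7.62 in OSCC. None of the 10 endothelial genes was called by limma or the methods' t-test, though 5 were lower at an unadjusted limma p below 0.05. Of 9 smooth muscle and pericyte genes only Myh11, a contractile myosin, was called (lower, 2.56-fold). Of 11 squamous epithelium genes only Dsg3, a desmosomal cadherin, was higher (2.10-fold). No marker of the fibroblast, leukocyte, squamous epithelium or skeletal muscle list stayed under background on all arrays.

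**Figure D3:**
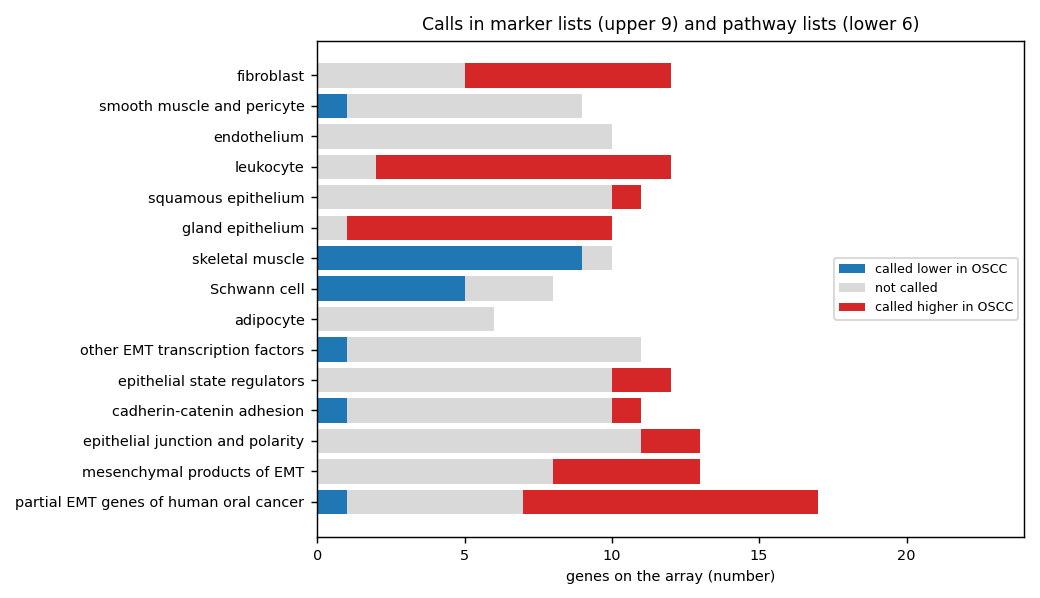
Number of genes called lower (blue), not called (gray) or called higher (red) in OSCC for 9 marker lists and 6 pathway lists. Red fills 7 of 12 fibroblast, 10 of 12 leukocyte and 9 of 10 gland genes, and blue fills 9 of 10 skeletal muscle genes.

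For each gene the difference was set against the mean difference of 4 lists over the pairs, 40 relations in all, with a two-sided permutation test of 100000 draws and adjustment over the 40. Where a pair stood far from the others on a list (animal 17 for fibroblasts, animal 24 for squamous epithelium), the 10 other pairs were used. Of the 40 relations 16 had an adjusted p below 0.05: 5 with fibroblasts, 5 with leukocytes, 6 with skeletal muscle and 0 with squamous epithelium. The share of all probes that would pass the same test was not computed. The count of 16 is therefore no trait particular to these genes. At an unadjusted permutation p below 0.05 the squamous list also had 0. Without the pairs of animals 21, 22 and 24 only 5 of 30 relations passed, 4 of them among the 16. The skeletal muscle list then split the pairs into clusters too small to test, and relations with the other lists were lost as well.

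Twist2 followed the fibroblast list most closely (r = 0.94, adjusted permutation p = 0.0018, rho = 0.99, n = 10 pairs, and r = 0.89 without the 2 pairs farthest from the median of the list). Twist1 did so nearly as closely (r = 0.94, rho = 0.90, and 0.86 without the 2). Snai1 had r = 0.85 with fibroblasts (adjusted permutation p = 0.0078, rho = 0.88, and 0.85 without the 2) and r = 0.85 with leukocytes (adjusted permutation p = 0.0078, rho = 0.79, and 0.78 without the 2). Vim had r = 0.73 with fibroblasts (adjusted permutation p = 0.043), which was 0.45 without the 2 pairs. Cdh2 also passed with 3 lists, but each of those signs turned with normexp background correction. Snai2 with leukocytes (r = 0.75, adjusted permutation p = 0.012) turned sign without the pair of animal 21 and again without animals 21, 22 and 24. In both cases further pairs then stood apart on the list, and r was taken over animals 4, 9, 11, 13, 16, 25 and 26 only.

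With skeletal muscle 5 of the 10 genes had a negative relation that passed: r was -0.91 for Twist2, -0.87 for Snai1, -0.86 for Twist1, -0.85 for Cdh2 and -0.75 for Snai2. Zeb1 was the only gene with a positive relation that passed (r = 0.75, adjusted permutation p = 0.021, rho = 0.63 with an adjusted p of 0.11, and r = 0.59 without the 2 pairs farthest from the median). With fibroblasts Zeb1 had r = -0.68 (adjusted permutation p = 0.067) and rho = -0.87 (adjusted permutation p = 0.011). No relation of Zeb2, Cdh1 or Epcam passed, the highest being r = 0.61 for Cdh1 with leukocytes (adjusted permutation p = 0.067). Which cells of the pieces gave the RNA was not tested.

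**Figure D4:**
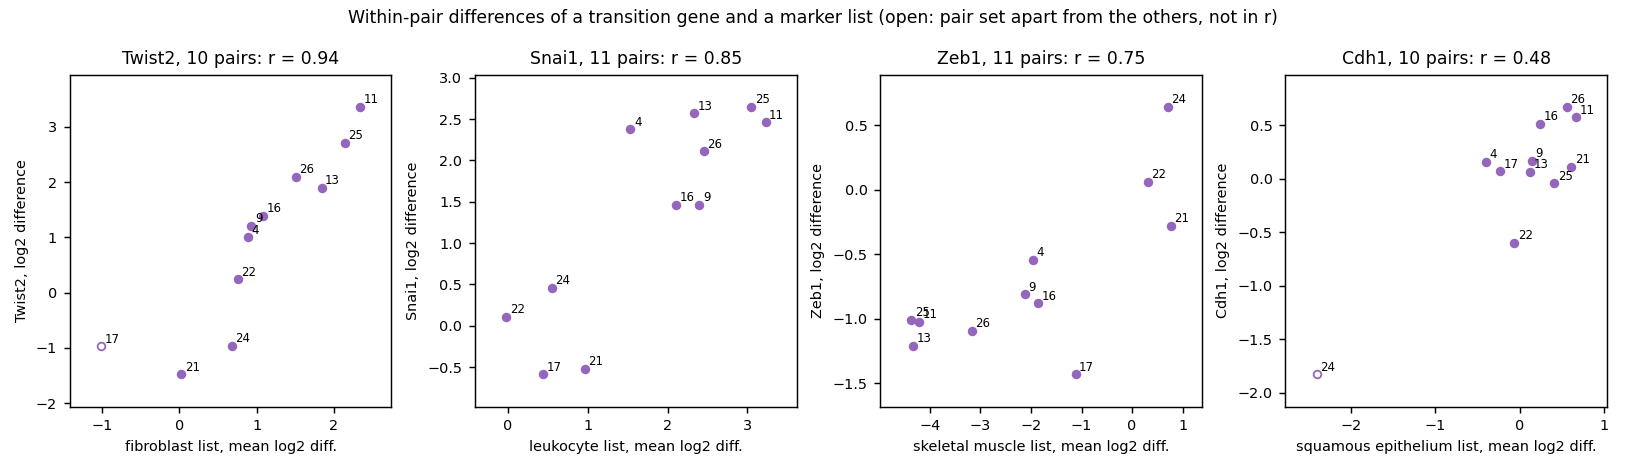
Differences within the pair (log2, OSCC minus normal) of 4 genes against the mean difference of a marker list, points numbered by animal. Open points are pairs that stood apart on the list and are not in r. Twist2 rose with fibroblasts (r = 0.94), Snai1 with leukocytes (r = 0.85) and Zeb1 with skeletal muscle (r = 0.75), while Cdh1 against squamous epithelium had r = 0.48 (adjusted permutation p = 0.28).

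To describe the genes against stroma and epithelium, the median of a list on each array was subtracted from all probes and the fit repeated. Against the fibroblast list only Zeb1 was called, lower by 1.30 ± 0.33 on the log2 scale (SE, adjusted p = 0.0055, limma, lower in 10 of 11 pairs). On that scale 40.7% of all probes were lower and 2.89% higher, so a lower call is common. Snai1 was at 0.71 ± 0.32 and not called (adjusted p = 0.062), Twist2 at 0.35 ± 0.36 and Snai2 at -0.06 ± 0.39. Twist1 was lower than the list in 11 of 11 pairs (-0.61 ± 0.30, adjusted p = 0.081), and Vim in 10 of 11 (-0.40 ± 0.28, adjusted p = 0.22).

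Against the squamous epithelium list 3 genes were called higher by limma, where 9.55% of all probes were higher and 2.52% lower. Snai1 rose by 1.60 ± 0.39 (SE, adjusted p = 0.0083) and Twist2 by 1.23 ± 0.40 (adjusted p = 0.047), each in 9 of 11 pairs, and Cdh2 passed at an adjusted p of 0.0096. Cdh1 was at 0.26 ± 0.28 (adjusted p = 0.68), with a 95% interval of -0.32 to 0.84. Epcam was at 0.80 ± 0.40 (adjusted p = 0.24). Twist2 was no longer called after quantile normalization, with the mean of the list, or when any 1 of animals 4, 9, 11, 13, 16, 25 and 26 was left out. Both sets of calls were lost with normexp background correction and with scan day as a term.

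**Figure D5:**
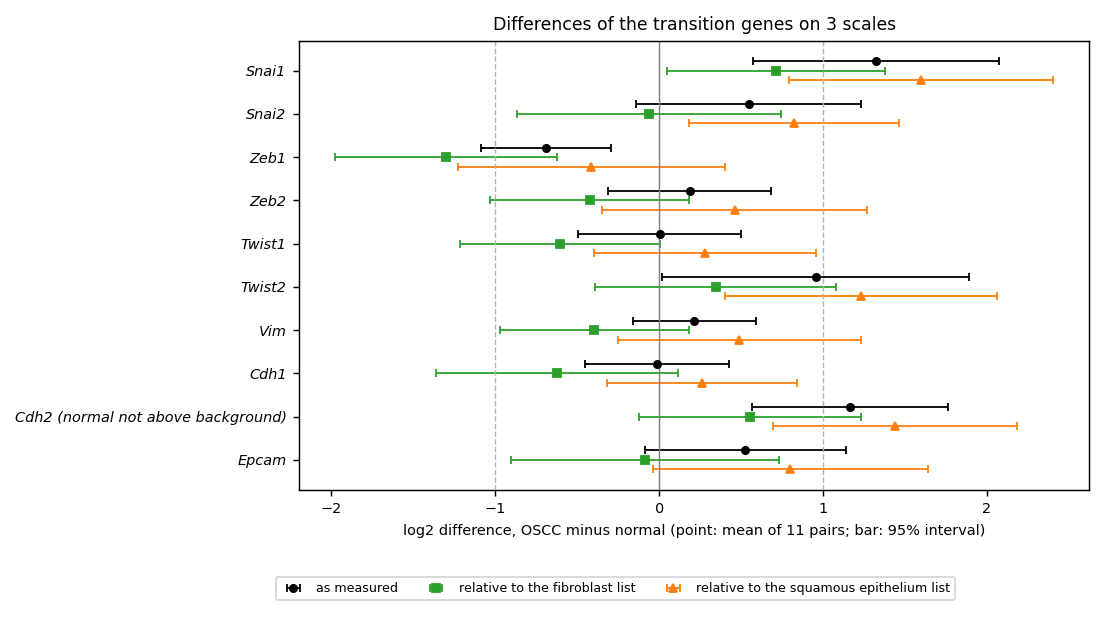
Mean log2 difference (OSCC minus normal, 11 pairs) with its 95% interval for each gene as measured (black), relative to the fibroblast list (green) and relative to the squamous epithelium list (orange). Dashed lines mark a 2-fold change. The point of Zeb1 lies left of 0 on all 3 scales (-0.69, -1.30 and -0.41). Its interval against squamous epithelium spans 0 (-1.23 to 0.4, limma adjusted p = 0.64). Snai1 lies right of 0 on all 3 (1.32, 0.71 and 1.60), and Cdh1 as measured is centered on -0.01.

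Of 11 other factors known to drive the transition 0 were higher by limma or the methods' t-test (at an unadjusted limma p below 0.05 and no fold minimum 2 were higher and 4 lower). Among these 4 is the probe listed as Tcf3, whose current symbol is Tcf7l1, another gene. The gene called lower was Snai3, a relative of Snai1 (-1.07 ± 0.23, adjusted p = 0.0041, lower in 10 of 11 pairs). Of 12 regulators that hold cells in the epithelial state 2 were higher, and at an unadjusted p below 0.05 with no fold minimum 2 were higher and 3 lower. Both called genes are ETS factors of epithelia. Ehf, detected in 2 of 11 normal and 11 of 11 OSCC pieces, rose in 11 of 11 pairs (limma adjusted p = 0.00015). Its fold is not given, because most normal pieces were not well above background. Elf3 rose 2.58-fold (limma adjusted p = 0.0035). Ehf differed most in animal 17 (4.87) and Elf3 in animal 16 (2.77), with gland list differences of 6.41 and 5.36. Ehf differed least in animal 4 (1.58) and Elf3 in animal 24 (-0.35), with gland list differences of 4.01 and 4.48. The part of gland tissue in these values was not tested. The list medians were -0.29 for the other factors and 0.07 for the regulators.

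Junction genes were called in both directions, the only one called lower being a cadherin of muscle. Of 11 genes of cadherin-catenin adhesion 1 was higher, Cdh3, the P-cadherin of basal epithelium (2.09-fold, adjusted p = 0.043, limma), and 1 was lower, Cdh15, the cadherin of muscle satellite cells (2.36-fold, adjusted p = 0.0077). Of 13 genes of epithelial junctions and polarity 2 were higher: Cldn7, a tight junction claudin (4.73-fold, adjusted p = 0.0081), and Dsg2, a desmosomal cadherin (adjusted p = 0.0042), which was detected in 1 of 11 normal and 9 of 11 OSCC pieces and whose fold is therefore not given. The list medians were 0.11 and 0.20. At an unadjusted limma p below 0.05 with no fold minimum, the first list had 2 higher and 2 lower. The second had 4 higher and 1 lower. That lower gene, Pard3, was at -0.85 ± 0.12 on the log2 scale (SE, limma adjusted p = 0.00041). It was lower in 11 of 11 pairs, but the change was under the 2-fold minimum. Cldn7 and Dsg2 had their largest differences in animal 17 (5.06 and 2.83), where the gland list difference was also highest (6.41). The part of gland tissue in these values was not tested.

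Of 13 mesenchymal products associated with the transition 5 were higher, with a median of 0.86. Lox, which cross-links collagen, was detected in 4 of 11 normal and 10 of 11 OSCC pieces and rose in 11 of 11 pairs (adjusted p = 0.00079, limma). Its fold is not given, because most normal pieces were not well above background. Tnc, the matrix glycoprotein tenascin-C, rose 12.0-fold, being higher in 10 of 11 pairs (limma adjusted p = 0.0014). Of 17 genes of a partial transition described in human oral cancer 10 were higher and 1 lower, with a median of 1.50. Mmp10, a secreted protease, was not well above background in any normal piece, and its rise in OSCC was at least 3.94-fold (adjusted p = 0.0042). Itgb6, an epithelial integrin subunit, fell by 1.70 ± 0.28 on the log2 scale in 11 of 11 pairs (adjusted p = 0.0010). The last 2 lists overlap, with Tnc in both, and fibroblasts also make several of their genes.

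Genes that most resembled each member were taken among 8415 genes detected on all arrays, by Pearson r over the 11 paired differences and as a description. Twist2 was most like Mmp2 (0.99), A3galt2 (0.97) and Osmr (0.96), and Twist1 most like Serpinf1 (0.99), Col6a2 (0.98) and Map6 (0.96). Snai1 was most like Rab31 (0.98), Emilin1 (0.98) and Rasl11b (0.97). For Snai2 the genes were Brp16 (0.98), Rrm2 (0.97) and Nop58 (0.97), and for Cdh1 they were Anxa8 (0.96), Cxxc1 (0.95) and Arhgef4 (0.95). Zeb1 resembled Sparcl1 (0.95), Flii (0.95) and Stx4 (0.94), Zeb2 resembled Lix1l (0.96), Pde9a (0.94) and Cnrip1 (0.92), and Vim resembled Fli1, Rhob and Cd48 (each 0.95). Epcam was most like Sh3bp4 (0.98), Tmem214 (0.98) and H13 (0.97). No other member was among the 3 genes most like any of these 9.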

How the data were processed

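RNA of 22 tongue pieces was hybridized to Agilent rat arrays (42877 non-control spots, 30367 probes). The authors extracted the spots with Feature Extraction 9.5.3.1, and the deposited intensity is the processed signal, background-subtracted and detrended, with no scaling between arrays. The authors also deposited values divided by the 75th percentile of each array, whose log2 served as an alternative. Probe positions follow rn4 in the file headers.

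Outlier spots (9196) were left out, log2 signals of a probe were averaged and the 75th percentile was subtracted, with no filter for dim probes. The comparison of tissues used limma (version 3.58.1, under R 4.3.3) and kept rat as the block, since 1 animal gave both pieces. The deviations of the pieces of a rat from their tissue means correlated at -0.21 to 0.24 (median -0.02). The number of arrays limits precision.

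Members and lists (158 of 164 genes matched) were chosen with earlier results of these data known. The genes named are all members, the 2 largest called rises and falls of a list where shown, and the 3 genes most like each member. A relation used the larger cluster where a gap over 30% of the range split the pairs, with all permutations enumerated up to 9 pairs.

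Alternatives were other scalings, normexp background correction, the authors' values, a filter on dim probes, no block, slide or scan day as a term, a t-test, each pair left out, and leaving out animals 21, 22 and 24.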

Additional observations from a re-analysis of the deposited data

How the results depend on the processing

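Calls as higher (2, Snai1 and Cdh2) became 1, Snai1 alone, with arrays scaled to the median, with normexp and with the dim-probe filter. They became 1 in the pairs split over scan days (Cdh2), and 4 without animals 21, 22 and 24 (Snai1, Snai2, Twist2 and Cdh2). With scan day as a term they became 0, in a fit that called only 3 of all 30367 probes. At an unadjusted limma p below 0.05 in that fit, 2 of the genes passed, and so did 9578 of all 30367 probes. Calls as higher ranged from 2 to 3 with 1 pair left out. Calls as lower (0) became 1, Zeb1, with no fold minimum and 1 without animals 21, 22 and 24. Without the replicate block, that is without the pairing by rat, the counts were again 2 and 0, with Snai1 and Cdh2 the genes called, and the block changed no other call. Against the fibroblast list the count (1) was 0 with normexp and with scan day, 3 with the mean of the list, and 2 without those animals. Against the squamous epithelium list the count (3) was 0 with normexp, with scan day and in the split pairs. Relations that passed (16) were 5 of 30 without animals 21, 22 and 24, and 8 to 15 with 1 pair left out, the lowest without animal 26. Leaving out a pair could set further pairs apart on a list, so these counts do not each rest on 1 pair. Without animal 26, those of animals 11, 13 and 25 were also set apart on the skeletal muscle list.

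Values near 0 changed sign, and the cause was not tested. Twist1 (0.00) was -0.031 after quantile normalization, -0.198 with the median and -0.015 in the split pairs, and -0.125 to 0.121 with 1 pair left out. Cdh1 (-0.01) was 0.093 after quantile normalization, 0.074 scaled on detected probes, 0.003 with slide as a random block, 0.162 with scan day, 0.271 without the 3 animals, and -0.082 to 0.168 with 1 pair left out. Zeb2 (0.18) was -0.016 with the median and -0.214 with scan day. The scan day values of Cdh1 and Zeb2 are the means of the pairs of animals 4 and 9. The median of all probes moved from -0.24 to -0.44 with the array median and to -0.03 with quantile normalization. Dim signal limits Cdh2.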
